A study of Mus musculus with 24 samples.

Results

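Wnt signalling in fat is set by how much ligand reaches its receptors and by proteins that hold the ligand back outside the cell. Frizzled proteins with the co-receptors Lrp5 and Lrp6 bind Wnt ligands, which lets beta-catenin build up and act with TCF and LEF factors on DNA. Secreted frizzled-related proteins (Sfrp) and Wif1 bind Wnt ligands, and Dickkopf proteins such as Dkk2 bind the Lrp co-receptors. In cultured preadipocytes, Wnt10b is known to hold back fat cell formation, and Sfrp5 is known as a protein made by fat cells that binds Wnt5a.

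The genes described are Sfrp1, Sfrp2, Sfrp4, Sfrp5, Wif1, Dkk2, Dkk3, Wnt10b, Wnt11 and Tcf7l2, 10 of the 41388 genes in the deposited files. They were taken by name as a list of Wnt modulators, with Ensembl identifiers matched to mouse symbols. The rule names no measured value, but the list was chosen with earlier results of these data known. All but 1 encode secreted proteins: Tcf7l2 is a nuclear factor that pairs with beta-catenin and is the intracellular end of the list. All 10 passed the filter on low counts and were tested, and 9 had at least 1 count in every library.

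Total RNA of inguinal white fat, the subcutaneous pad of the groin, was sequenced from male mice in 24 libraries. Every mouse carried floxed alleles of Nr3c2, the mineralocorticoid receptor gene (MRflox/flox), so the controls carry them too. The FMRKO mice also carried AdipoqCre, a Cre recombinase driven by the adiponectin promoter, so recombination is aimed at mature fat cells and not at the other cells of the pad. Each genotype was studied under chow, high-fat diet or corticosterone (the chief glucocorticoid in mice), with 4 libraries in each of the 6 groups. Age, dose, duration, diet composition and a vehicle group are not stated in the labels, so chow served as the reference for both treatments. The labels do not say that each library is a separate animal, and p-values then measure only the spread between these libraries.

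Totals ran from 17925109 to 40427675 counts per library. Adipoq averaged 1210 to 1540 TMM-scaled CPM (read counts relative to library size) in the 6 groups, and all 8 fat cell markers examined were detected. Nr3c2 averaged 23.5, 20.8 and 16.7 CPM in controls on chow, high-fat diet and corticosterone, and 19.2, 14.5 and 10.6 CPM in FMRKO mice; over the conditions FMRKO minus control was -0.49 ± 0.11 on the log2 scale (SE; adjusted p = 0.287, edgeR), counted over the whole gene and all cells of the pad. Lymph node markers gave scores (mean log2 CPM of the list) of 4.21 to 6.27 in 6 libraries (chow FMRKO 1 and 3, high-fat control 1 and 4, high-fat FMRKO 1 and 4), and corticosterone FMRKO 2 and 3 followed at 2.84 and 2.82. Skeletal muscle markers stood at 4.47 to 9.60 in chow FMRKO 5, high-fat control 3 and corticosterone control 2. With both sets left out, high-fat controls and chow FMRKO mice keep 1 library each (number 2), so a value from that setting in a comparison with either group has an arm without replicates, assumed to vary like the other groups. Titles of all 8 chow libraries carry a leading number and those of 0 of the other 16 do. If that marks a batch, it cannot be told apart from chow in any comparison with it.

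Promoter sequences are shown for Sfrp5 and Wif1, the members with the largest rises, and for Sfrp2, which fell with corticosterone. They come from the RefSeq table for GRCm38.p6, in which 7 of the 10 members have 1 or more windows; Sfrp1, Sfrp4 and Dkk3 were not matched. Each window runs from 250 bases before the RefSeq start to 50 after it, and only the bases ahead of the first annotated base of the gene (GENCODE M21) are printed, 5′ to 3′ on the gene's strand. Capitals mark matches, on either strand, of a GC box, spelled GGGCGG. They also mark the TATA box, whose letters are TATAAA. Sfrp5 is on the minus strand at chr19:42202253-42202502, Wif1 on the plus strand at chr10:121033754-121033959 and Sfrp2 on the plus strand at chr3:83766071-83766320.
Sfrp5: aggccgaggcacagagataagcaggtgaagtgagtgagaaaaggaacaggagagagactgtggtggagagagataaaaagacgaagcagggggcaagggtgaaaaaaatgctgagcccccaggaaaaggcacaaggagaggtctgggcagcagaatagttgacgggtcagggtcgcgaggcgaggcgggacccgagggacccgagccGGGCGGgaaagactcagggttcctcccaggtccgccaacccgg
Wif1: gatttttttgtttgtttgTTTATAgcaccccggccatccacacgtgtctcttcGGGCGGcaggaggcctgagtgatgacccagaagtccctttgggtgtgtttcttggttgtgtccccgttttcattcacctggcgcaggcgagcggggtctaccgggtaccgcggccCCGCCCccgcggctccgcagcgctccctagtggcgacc
Sfrp2: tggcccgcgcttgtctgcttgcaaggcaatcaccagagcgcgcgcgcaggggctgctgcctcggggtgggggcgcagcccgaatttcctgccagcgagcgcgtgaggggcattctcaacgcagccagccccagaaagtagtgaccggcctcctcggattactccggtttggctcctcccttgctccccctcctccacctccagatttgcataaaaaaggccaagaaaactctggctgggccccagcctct
The Sfrp5 stretch holds 1 GC box match, the Wif1 stretch 2 GC box matches and 1 TATA box match, and the Sfrp2 stretch neither. GC boxes occur in 35.7% and TATA boxes in 13.6% of all 32851 windows of 300 bases. A full glucocorticoid response element, the palindrome GNACANNNTGTNC bound by the glucocorticoid and mineralocorticoid receptors, was found in 0 of the 9 member windows and in 0.475% of all windows. The TCF and LEF motif CTTTGAT was found in 1 member window, that of Wnt11, and in 3.73% of all windows. A match is a string of letters, not a shown binding site, and sites outside these windows were not searched.

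Per kilobase of exon, which allows levels of different genes to be compared, the order in chow controls was led by Sfrp2 at 26.6 ± 10.8 CPM per kb (SD, n = 4). Tcf7l2 followed at 18.5 ± 1.06, Sfrp4 at 9.71 ± 6.35 and Sfrp5 at 7.90 ± 1.95 CPM per kb. Wnt11 at 2.29 ± 0.444, Wnt10b at 1.81 ± 0.902 and Sfrp1 at 1.46 ± 0.490 lay within each other's spread, as did Dkk2 at 0.825 ± 0.310 and Dkk3 at 0.752 ± 0.370. Wif1 was lowest at 0.0272 ± 0.0206 CPM per kb. Under either treatment Sfrp5 led in both genotypes, at 120 ± 30.1 and 75.6 ± 28.8 CPM per kb in high-fat and corticosterone controls.

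**Figure D1:**
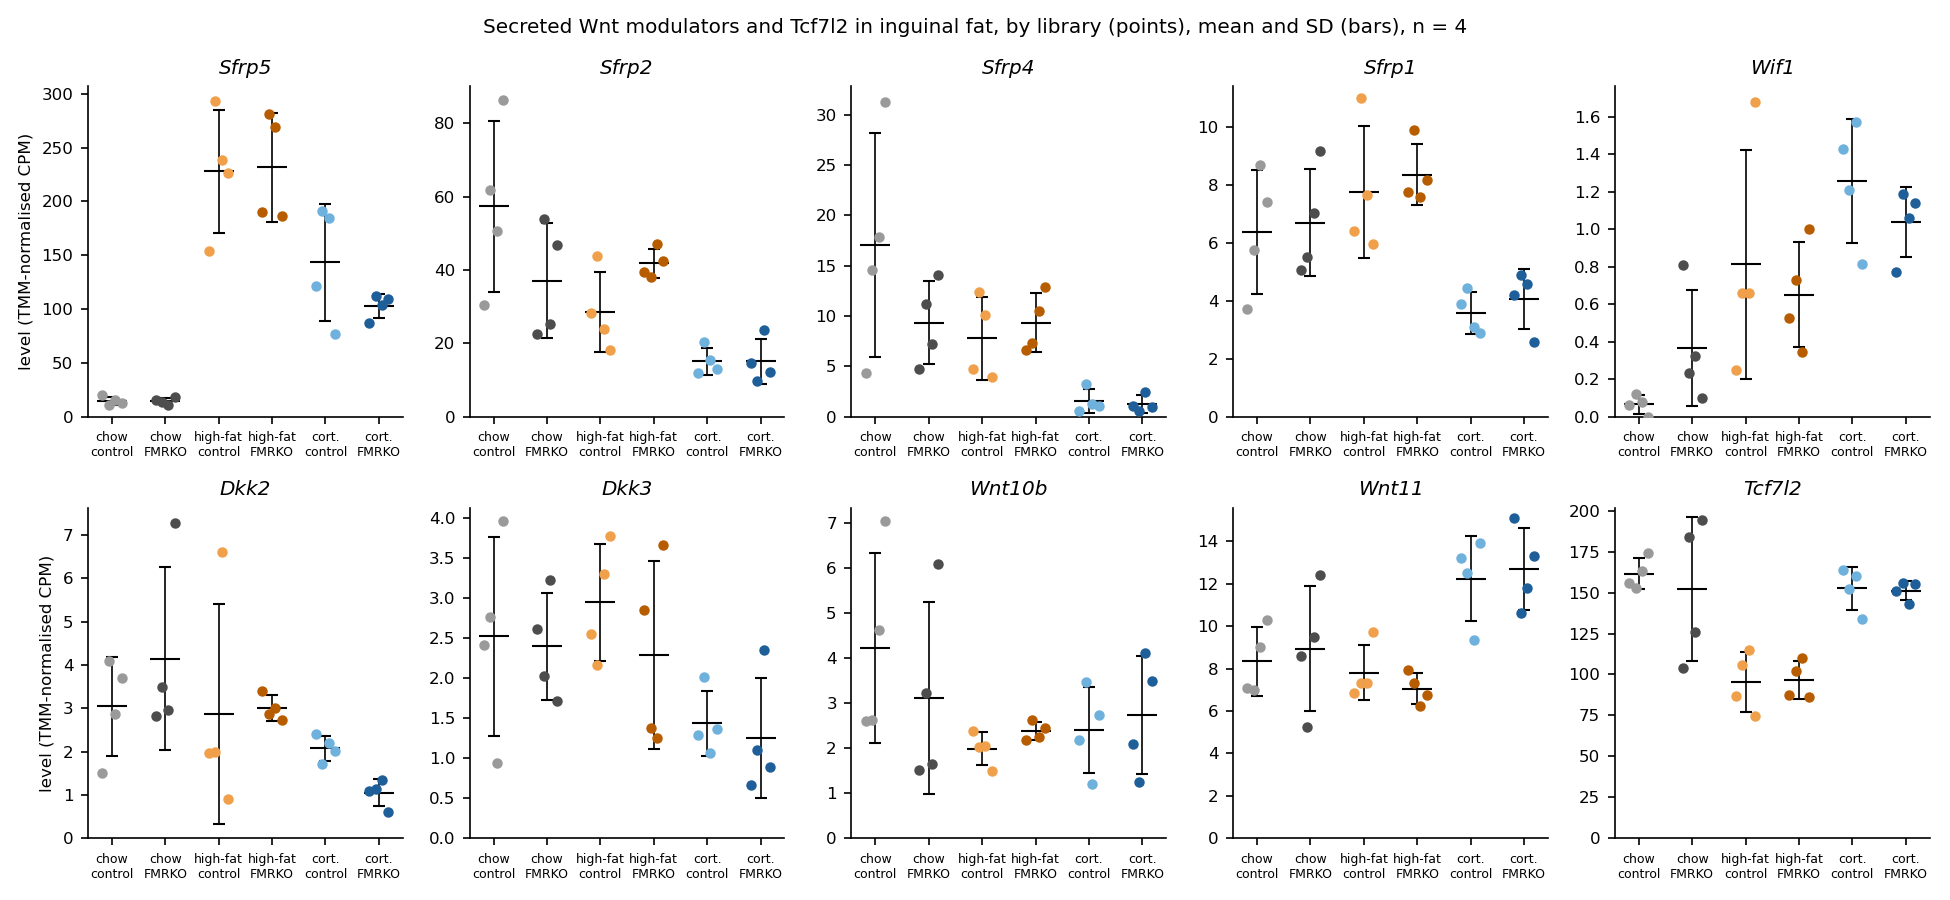
Level of each of the 10 genes (y axis, TMM-normalised CPM from 0) in the 4 libraries of each group (x axis); points are libraries, the dash is the mean and the bars are the SD. Sfrp5 lies between 10.7 and 19.8 CPM in all 8 chow libraries and at 77.1 CPM or more in the other 16.

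Sfrp5 (ENSMUSG00000018822, chromosome 19, 42197971 to 42202252, minus strand, GRCm38), the adipocyte-derived decoy for Wnt ligands, rose in both treatments and both genotypes. On chow it was at 19.8, 11.4, 16 and 12.9 CPM in control libraries 1, 2, 4 and 5 and at 15.4, 13.4, 10.7 and 18.1 CPM in FMRKO libraries 1, 2, 3 and 5. On the high-fat diet it was at 154, 293, 238 and 226 CPM in controls 1 to 4 and at 190, 281, 269 and 186 CPM in FMRKO mice 1 to 4. Every high-fat library was above every chow library. With corticosterone it was at 121, 191, 185 and 77.1 CPM in controls and at 87.4, 112, 104 and 109 CPM in FMRKO mice, again all above chow. The high-fat diet raised it 15.2-fold in controls (log2 fold change 3.92 ± 0.28, adjusted p = 1.0e-08, edgeR quasi-likelihood test with Benjamini-Hochberg adjustment over all 19717 genes tested) and 16.1-fold in FMRKO mice (4.01 ± 0.28, adjusted p = 1.5e-08). Corticosterone raised it 9.56-fold in controls (3.26 ± 0.27, adjusted p = 4.0e-08) and 7.17-fold in FMRKO mice (2.84 ± 0.27, adjusted p = 2.1e-07). The calls in all 4 comparisons with chow held in all 34 alternative settings, with log2 fold changes of 2.73 to 4.38. The comparisons of a genotype share its chow libraries.

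Between the treatments, Sfrp5 was lower with corticosterone than on the high-fat diet in FMRKO mice, by a log2 fold change of -1.17 ± 0.25 (adjusted p = 0.003, edgeR), with all 4 corticosterone libraries below all 4 high-fat ones. In controls the value was -0.67 ± 0.25 (adjusted p = 0.055, 95% interval -1.18 to -0.15) and the libraries overlapped. Without high-fat control 1 it was -0.76 (0.032), and without corticosterone control 2 or 3 it was -0.78 (0.035) or -0.76 (0.045). Most of the 34 alternatives did not pass, and the values ran from -1.19 to -0.41. Sfrp5 did not pass the threshold between genotypes: FMRKO minus control gave -0.06 ± 0.26 under chow, 0.02 ± 0.25 under high-fat diet and -0.48 ± 0.25 under corticosterone (adjusted p = 0.945, 1.000 and 1.000).

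Sfrp2 (ENSMUSG00000027996, chromosome 3, 83766321 to 83774316), a secreted frizzled-related protein made by fibroblasts of connective tissue, fell with corticosterone. On chow it was at 30.4, 61.9, 50.7 and 86.3 CPM in controls and at 22.5, 53.9, 25.2 and 46.8 CPM in FMRKO mice. With corticosterone it was at 11.9, 20.3, 15.4 and 12.9 CPM in controls and at 14.8, 9.72, 23.7 and 12.1 CPM in FMRKO mice. All control values with corticosterone lay below all on chow, while in FMRKO mice 1 corticosterone library reached into the chow range. The log2 fold change was -1.92 ± 0.34 in controls (adjusted p = 1.6e-04, edgeR) and -1.29 ± 0.34 in FMRKO mice (adjusted p = 0.005). In FMRKO mice Sfrp2 was also lower with corticosterone than on the high-fat diet (-1.47 ± 0.34, adjusted p = 0.005), and in controls that difference was -0.91 ± 0.34 (adjusted p = 0.051). It passed in 12 of 34 alternatives, among them without chow control 1 (-0.91, 0.037), chow FMRKO 1 (-0.90, 0.043) or 2 (-0.91, 0.045), high-fat control 4 (-1.02, 0.043), corticosterone control 2 (-1.04, 0.046) or corticosterone FMRKO 3 (-0.91, 0.041).

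On the high-fat diet Sfrp2 was at 28.4, 43.7, 23.9 and 18.2 CPM in controls and at 39.5, 38.2, 47.1 and 42.6 CPM in FMRKO mice. Against chow, it fell in controls by 1.01 on the log2 scale (SE 0.33, adjusted p = 0.028, edgeR), with overlapping libraries, and in FMRKO mice the value was 0.18 ± 0.33 (adjusted p = 0.741). The difference between those effects was 1.18 ± 0.47 (unadjusted p = 0.020, adjusted p = 0.481), so the genotypes were not shown to differ. The Sfrp2 call in high-fat controls was lost in 9 of 34 alternatives. Without chow control 5 it was -0.77 (adjusted p = 0.105), without high-fat control 3 it was -0.95 (0.061), without high-fat control 4 it was -0.87 (0.066), and without the lymph node libraries, which leaves 2 high-fat controls, it was -0.72 (0.179). A few reads may come from Gm26771, an antisense gene that overlaps Sfrp2 and had at most 25 counts, since strand use in counting is not stated.

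Sfrp4 (ENSMUSG00000021319, chromosome 13, 19623175 to 19632821), a further member of the family, showed the largest fall of the list. On chow it was at 4.34, 14.6, 17.9 and 31.3 CPM in controls and at 4.77, 11.2, 7.27 and 14.1 CPM in FMRKO mice. With corticosterone it was at 0.574, 3.28, 1.28 and 1.03 CPM in controls and at 1.10, 0.530, 2.5 and 0.928 CPM in FMRKO mice. No corticosterone library reached any chow library of its genotype. Corticosterone lowered Sfrp4 10.9-fold in controls (-3.44 ± 0.62, adjusted p = 1.6e-04, edgeR) and 7.24-fold in FMRKO mice (-2.86 ± 0.61, adjusted p = 9.7e-04). Against the high-fat diet the log2 fold changes were -2.31 ± 0.59 and -2.86 ± 0.61 (adjusted p = 0.008 and 0.003). All 4 of these calls held in all 34 alternatives. The high-fat diet against chow gave -1.13 ± 0.56 in controls (adjusted p = 0.136) and 0.01 ± 0.55 in FMRKO mice (adjusted p = 0.994). Without chow control 1 the Sfrp4 value in controls was -1.45 (0.049). It passed in only 1 of 34 alternatives, with values of -1.47 to -0.43.

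Sfrp1 (ENSMUSG00000031548, chromosome 8, 23411502 to 23449632), another member of the family, was also lower with corticosterone, by less. It was at 3.73, 5.76, 8.68 and 7.40 CPM in chow controls and at 3.91, 4.44, 3.09 and 2.91 CPM in corticosterone controls. In FMRKO mice the values were 5.08, 5.53, 7.05 and 9.17 CPM on chow and 4.20, 4.90, 4.58 and 2.57 CPM with corticosterone, without overlap. The log2 fold change was -0.83 ± 0.26 in controls (adjusted p = 0.015, edgeR) and -0.72 ± 0.26 in FMRKO mice (adjusted p = 0.032). The Sfrp1 control call was lost without chow control 4 (-0.64, adjusted p = 0.066) or corticosterone control 4 (-0.71, 0.054). That in FMRKO mice was lost without chow FMRKO 3 (-0.69, 0.065), chow FMRKO 5 (-0.53, 0.123) or corticosterone FMRKO 4 (-0.58, 0.095), and without the lymph node libraries, which leaves 2 chow FMRKO libraries, it was -0.80 (0.068). Against the high-fat diet, where Sfrp1 averaged 7.76 and 8.36 CPM, it was lower in both genotypes without overlap (-1.11 ± 0.26 and -1.04 ± 0.26, adjusted p = 0.004 and 0.009).

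The make-up of the 4 Sfrp transcripts was led by Sfrp2 on chow and by Sfrp5 in the other groups. On the per-kilobase scale Sfrp5 was 20% ± 12.1 (SD, n = 4) of the summed Sfrp level in chow controls, 86.0% ± 3.76 under high-fat diet and 89.1% ± 3.04 under corticosterone. In FMRKO mice the shares were 25.3% ± 7.73, 81.6% ± 3.67 and 86.3% ± 4.88. Sfrp2 went from 57.3% ± 6.42 of the sum in chow controls to 9.65% ± 3.15 and 8.87% ± 2.54. The highest Sfrp5 share in any chow library was 37.3% and the lowest in any other library was 77.2%.

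**Figure D2:**
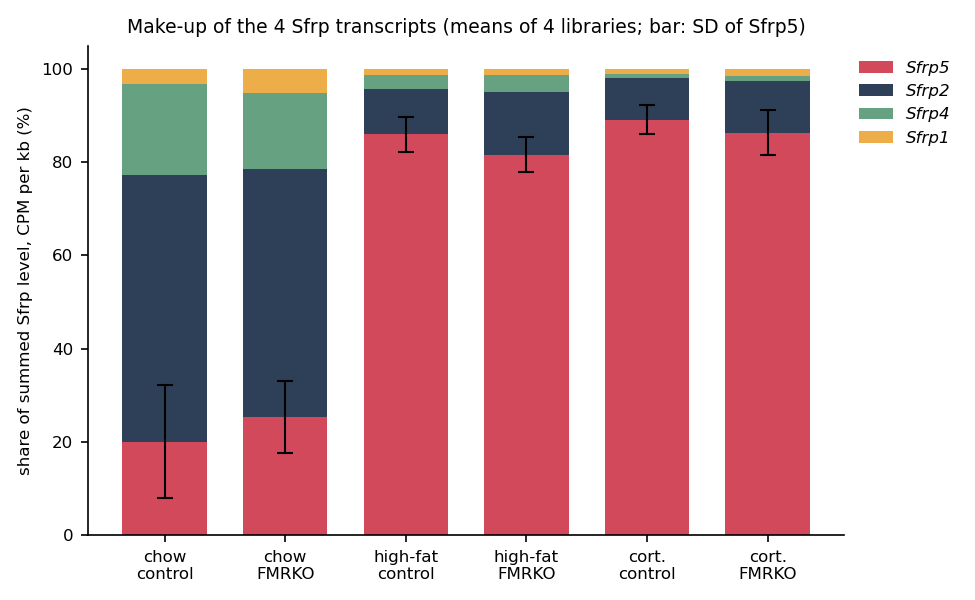
Mean share of each Sfrp gene in the summed Sfrp level (y axis, percent of CPM per kb) in the 6 groups (x axis, 4 libraries each); the error bar is the SD of the Sfrp5 share. Sfrp2 holds the largest share on chow and Sfrp5 in the other 4 groups.

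Stromal markers moved with Sfrp2 and Sfrp4. The mean log2 CPM of 10 markers of fat pad fibroblasts and preadipocytes, which include Pdgfra and Dpp4, had a median of 7.76 (6.95 to 8.01) in chow controls and 6.71 (6.39 to 7.08) in corticosterone controls. In FMRKO mice it was 7.43 (7.17 to 7.62) and 6.78 (6.43 to 7.01). With corticosterone 7 of the 10 were lower in controls and 5 of 10 in FMRKO mice, with 0 higher in either. Of all genes tested, 42.9% were called in controls and 41.1% in FMRKO mice, and these shares also stand beside the marker counts below. By direction, 4467 of 19717 genes were lower and 3986 higher in controls, and 4113 lower and 3989 higher in FMRKO mice. Pdgfra fell by 1.03 and Dpp4 by 1.71 on the log2 scale in controls (SE 0.16 and 0.33; adjusted p = 4.8e-05 and 3.3e-04, edgeR). None of the 10 was at 0 in a group. Other lists moved with corticosterone too. Endothelial markers were lower for 5 of 6 in controls, where their score had a median of 6.73 (6.64 to 7.00) on chow and 6.11 (5.98 to 6.20) with corticosterone, and in FMRKO mice 3 of 6 were lower and 1 higher. Of 5 mural cell markers, 3 were lower and 1 higher in controls and 1 lower and 1 higher in FMRKO mice. Of 6 macrophage markers, 4 were higher in FMRKO mice and 0 passed in controls. Of 8 fat cell markers, 3 were higher and 0 lower in each genotype. The fat cell score had a median of 11.09 (10.51 to 11.57) in chow controls and 11.63 (11.40 to 11.69) in corticosterone controls. In FMRKO mice it was 10.87 (10.55 to 11.34) and 11.60 (11.50 to 11.68). The part of these lists in the results for Sfrp2, Sfrp4 and Sfrp5 was not tested. In bulk tissue, fewer cells of a type and less RNA per cell cannot be told apart.

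Within groups Sfrp4 and Sfrp2 followed the stromal markers from library to library. With each group mean removed, log2 Sfrp4 and the stromal score had Pearson's r = 0.95 and Spearman's rho = 0.96 over 24 libraries (permutation p = 1e-05 for each, the smallest that 100000 resamples within groups can give; Benjamini-Hochberg adjusted p = 0.001 for each over 100 relations of 10 genes with 10 marker lists), and r was 0.94 without the 2 libraries farthest from the median. Sfrp2 and the stromal score had r = 0.80 (permutation p = 9.0e-05, adjusted 0.005) and rho = 0.78 (permutation p = 3.4e-04, adjusted 0.016), and r was 0.73 without 2 libraries. For Sfrp1 the values were r = 0.50 (permutation p = 0.059, adjusted 0.252) and rho = 0.47 (permutation p = 0.047, adjusted 0.262). For Sfrp5 and the stromal score r was 0.05 (permutation p = 0.858, adjusted 0.894) and rho 0.10 (permutation p = 0.683, adjusted 0.843).

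**Figure D3:**
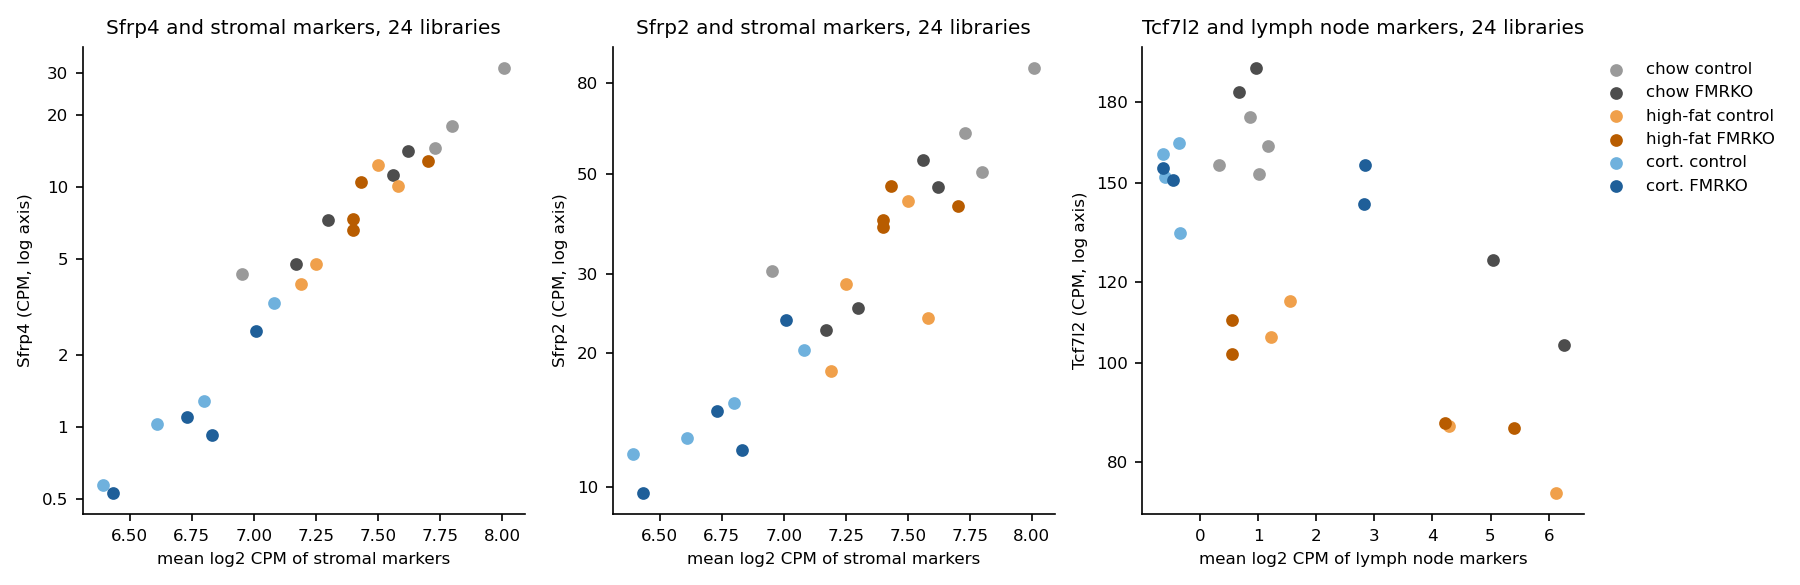
Sfrp4 and Sfrp2 (y axes, CPM, log axes) against the mean log2 CPM of 10 stromal markers (x axes), and Tcf7l2 (y axis, CPM, log axis) against 10 lymph node markers (x axis), in 24 libraries coloured by group. Sfrp4 runs from 0.530 to 31.3 CPM, with the highest value in the library of the highest stromal score, and Tcf7l2 is lowest, at 74.6 CPM, in a high-fat control rich in lymph node markers.

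Wif1 (ENSMUSG00000020218, chromosome 10, 121033960 to 121100650), the Wnt inhibitory factor, was barely detected in chow controls and higher in both treatments. Chow controls had 2, 4, 2 and 0 counts, and chow FMRKO libraries 1, 2, 3 and 5 had 29, 6, 10 and 2 counts. High-fat controls had 6, 15, 19 and 45 counts and corticosterone controls 40, 46, 38 and 19. Every treated control lay above every chow control, while in FMRKO mice, with 15, 17, 8 and 32 counts under high-fat diet and 21, 27, 36 and 32 under corticosterone, the library with 29 counts on chow overlapped both. The control means were 0.0660 ± 0.05 CPM on chow, 0.813 ± 0.612 CPM on the high-fat diet and 1.26 ± 0.331 CPM with corticosterone (SD, n = 4).

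The summed Wif1 counts, scaled for library size, gave a ratio to chow of 11.6 (95% interval 5.65 to 27.9) for the high-fat diet and 17.7 (8.73 to 41.7) for corticosterone in controls; these exact binomial intervals cover counting error only. The fitted log2 fold changes in controls were 3.47 ± 0.66 and 4.09 ± 0.66 (adjusted p = 5.5e-04 and 6.0e-05, edgeR) and rest on 8 counts in all chow controls. The first of these calls held in all 33 alternatives that could test it, the second in all 34. In FMRKO mice Wif1 gave 0.78 ± 0.56 on the high-fat diet (adjusted p = 0.342) and 1.44 ± 0.55 with corticosterone (adjusted p = 0.042). That last call held in 13 of 34 alternatives, with log2 fold changes of 1.10 to 2.61. Leaving out any FMRKO library on chow or corticosterone other than chow FMRKO 1 ended it, with adjusted p from 0.057 to 0.104, and so did leaving out high-fat control 2 or 3, high-fat FMRKO 1 or 2 or any corticosterone control (adjusted p from 0.053 to 0.057). Without chow FMRKO 1 it was 2.21 (0.006), and without the lymph node libraries 2.61 (0.003).

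Chow FMRKO libraries had more Wif1 than chow controls, by 2.38 ± 0.67 on the log2 scale (unadjusted p = 0.002, adjusted p = 0.285, edgeR), with overlap. The highest value, 0.809 CPM in chow FMRKO 1, came from the library with the highest lymph node score, and without that library the log2 fold change was 1.64 (adjusted p = 0.678). The effect of the genotype on Wif1 differed from that on chow by -2.69 ± 0.86 for the high-fat diet and -2.65 ± 0.85 for corticosterone (adjusted p = 0.481 and 0.605), so a difference was not shown. Within groups Wif1 was lower where Schwann cell markers were higher (r = -0.69, permutation p = 6.7e-04, adjusted 0.017; rho = -0.73, permutation p = 6.3e-04, adjusted 0.016; r = -0.66 without 2 libraries). Corticosterone changed 42.9% of all genes tested in controls and 41.1% in FMRKO mice, and the high-fat diet 29.2% and 24.4%. With corticosterone 3 of 6 Schwann cell markers fell in controls and 4 of 6 in FMRKO mice, while Wif1 was higher. On the high-fat diet 4 of 6 fell and 1 rose in controls, where Wif1 rose, and 1 fell and 1 rose in FMRKO mice, where Wif1 was not called. In high-fat controls 7 of 10 lymph node markers were higher as well. The part of these markers in the result was not tested.

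Dkk2 (ENSMUSG00000028031, chromosome 3, 132085292 to 132180293), a Dickkopf protein that binds Lrp5 and Lrp6, was lower with corticosterone in FMRKO mice. It was at 2.82, 3.50, 2.97 and 7.29 CPM in FMRKO mice on chow, at 3.41, 2.88, 3.02 and 2.73 CPM on the high-fat diet and at 1.10, 1.15, 1.35 and 0.607 CPM with corticosterone. All 4 corticosterone libraries were below all 8 others of the genotype. Against chow the log2 fold change was -1.97 ± 0.46 (adjusted p = 0.002, edgeR), a 3.91-fold fall that held in all 34 alternatives (-2.30 to -1.46). Without chow FMRKO 5, which is rich in muscle transcripts and holds the highest value, it was -1.55 (adjusted p = 0.011). Against the high-fat diet Dkk2 changed by -1.51 ± 0.46 (adjusted p = 0.027), a call lost without high-fat FMRKO 1 (-1.42, 0.061) or corticosterone FMRKO 1 (-1.51, 0.059), 2 (-1.51, 0.055) or 4 (-1.29, 0.092).

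In controls Dkk2 was at 1.51, 4.10, 2.88 and 3.70 CPM on chow and at 2.40, 1.71, 2.19 and 2.01 CPM with corticosterone (-0.55 ± 0.44, adjusted p = 0.325, edgeR; 95% interval -1.47 to 0.37). With corticosterone, each FMRKO library was below each control library, by -0.97 ± 0.45 on the log2 scale (unadjusted p = 0.044, adjusted p = 1.000). The corticosterone effect on Dkk2 differed between genotypes by -1.41 ± 0.63 (unadjusted p = 0.036, adjusted p = 0.814), which does not pass the threshold. High-fat control 3, with muscle markers, stood at 6.60 CPM against 0.898 to 1.99 CPM in the other high-fat controls, while corticosterone control 2, richer in muscle markers, was at 1.71 CPM. Without the muscle libraries Dkk2 in high-fat controls against chow was -0.94 (adjusted p = 0.039), where all libraries gave -0.08 ± 0.44 (0.901). It passed in only 1 of 34 alternatives, with values of -0.94 to 0.54.

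Dkk3 (ENSMUSG00000030772, chromosome 7, 112116019 to 112159057), a divergent Dickkopf, passed the threshold in none of the 12 comparisons. It averaged 2.52 ± 1.24, 2.95 ± 0.727 and 1.44 ± 0.408 CPM in controls on chow, high-fat diet and corticosterone, and 2.40 ± 0.669, 2.29 ± 1.17 and 1.25 ± 0.754 CPM in FMRKO mice (SD, n = 4). With corticosterone against chow the values were -0.80 ± 0.42 and -0.93 ± 0.43 (adjusted p = 0.132 and 0.084, edgeR). Without chow control 4 the first was -1.07 (adjusted p = 0.043), and without corticosterone FMRKO 3 the second was -1.44 (adjusted p = 0.015). Against the high-fat diet all 4 corticosterone controls were below all 4 high-fat controls (-1.03 ± 0.42, adjusted p = 0.081). In FMRKO mice that Dkk3 difference was -0.86 ± 0.43 (0.178), and -1.37 (0.040) without corticosterone FMRKO 3. It passed in only 1 of 34 alternatives, with values of -1.37 to -0.03. With group means removed, Dkk3 was lower where fat cell markers were higher (r = -0.60, adjusted permutation p = 0.056, and rho = -0.70, adjusted permutation p = 0.016). For lymph node markers r was 0.58 (adjusted permutation p = 0.056) and rho 0.61 (adjusted permutation p = 0.093). The part of these markers in the Dkk3 values was not tested.

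Of the ligands, Wnt11 (ENSMUSG00000015957, chromosome 7, 98835112 to 98855195), known for signalling that does not run through beta-catenin, was higher with corticosterone. Controls were at 7.07, 6.97, 9 and 10.3 CPM on chow, at 6.87, 7.33, 7.30 and 9.72 CPM on the high-fat diet and at 13.2, 12.5, 9.37 and 13.9 CPM with corticosterone. FMRKO mice were at 8.59, 5.26, 9.47 and 12.4 CPM on chow, at 7.91, 7.31, 6.22 and 6.75 CPM on the high-fat diet and at 15.1, 10.6, 11.8 and 13.3 CPM with corticosterone. Only against the high-fat diet in FMRKO mice did the libraries not overlap. The log2 fold change there was 0.85 ± 0.20 (adjusted p = 0.006, edgeR) and held in all 34 alternatives. In controls against the high-fat diet Wnt11 changed by 0.65 ± 0.20 (adjusted p = 0.023), a call lost without corticosterone control 4 (0.63, adjusted p = 0.053), the muscle libraries (0.65, 0.052) or the lymph node libraries (0.76, 0.076).

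Against chow, Wnt11 with corticosterone gave 0.56 ± 0.20 in controls (adjusted p = 0.031, edgeR) and 0.51 ± 0.20 in FMRKO mice (adjusted p = 0.050, just under the threshold before rounding). The control call was lost without chow control 1 (0.49, adjusted p = 0.082) or 2 (0.52, 0.077) and without corticosterone control 1 (0.55, 0.064), 2 (0.58, 0.052) or 4 (0.52, 0.076). In FMRKO mice the Wnt11 call held in 8 of 34 alternatives, with adjusted p from 0.007 to 0.180. Wnt11 on the high-fat diet against chow was -0.09 ± 0.20 and -0.34 ± 0.20 (adjusted p = 0.757 and 0.245). Without chow FMRKO 2 the second was -0.52 (0.041). That value passed in only 1 of 34 alternatives and ran from -0.52 to 0.38.

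Wnt10b (ENSMUSG00000022996, chromosome 15, 98771753 to 98778150), the ligand linked to blocked fat cell formation, passed the threshold in no comparison. It was at 2.60, 2.62, 4.62 and 7.04 CPM in chow controls and at 2.39, 2.03, 2.05 and 1.5 CPM in high-fat controls, all below chow. That difference was -1.08 ± 0.44 (unadjusted p = 0.022, adjusted p = 0.067, edgeR) and -1.06 with adjusted p = 0.045 in DESeq2. It passed in 7 of 34 alternatives, among them without chow control 1 (-1.25, 0.046), chow control 2 (-1.27, 0.045), chow FMRKO 5 (-1.08, 0.040) or corticosterone FMRKO 2 (-1.10, 0.047). In FMRKO mice Wnt10b ranged from 1.51 to 6.08 CPM on chow and from 2.18 to 2.62 CPM on the high-fat diet (-0.38 ± 0.43, adjusted p = 0.571). With corticosterone it changed by -0.81 ± 0.43 and -0.17 ± 0.43 (adjusted p = 0.137 and 0.774).

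Tcf7l2 (ENSMUSG00000024985, chromosome 19, 55741810 to 55933654), the nuclear partner of beta-catenin, fell on the high-fat diet and did not pass the threshold with corticosterone. Controls were at 156, 153, 163 and 174 CPM on chow, at 86.8, 106, 115 and 74.6 CPM on the high-fat diet and at 164, 152, 160 and 134 CPM with corticosterone. FMRKO mice were at 104, 184, 126 and 194 CPM on chow, at 87.3, 102, 110 and 86.3 CPM on the high-fat diet and at 151, 156, 143 and 155 CPM with corticosterone. The high-fat libraries lay below all chow and corticosterone libraries of the controls, and in FMRKO mice below all with corticosterone but not all on chow.

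The high-fat diet lowered Tcf7l2 1.69-fold in controls (-0.76 ± 0.16, adjusted p = 0.001, edgeR) and 1.58-fold in FMRKO mice (-0.66 ± 0.16, adjusted p = 0.004). These calls held in all 34 alternatives. Corticosterone against the high-fat diet gave 0.67 ± 0.16 and 0.65 ± 0.16 (adjusted p = 0.004 and 0.007), and against chow -0.08 ± 0.16 (95% interval -0.41 to 0.24) and -0.00 ± 0.16. Libraries rich in lymph node markers were low in Tcf7l2 within their groups: chow FMRKO 1 and 3 at 104 and 126 CPM against 184 and 194, high-fat control 1 and 4 at 86.8 and 74.6 against 106 and 115, and high-fat FMRKO 1 and 4 at 87.3 and 86.3 against 102 and 110. Without those libraries, which leaves 2 in each of these 3 groups, Tcf7l2 on the high-fat diet against chow was -0.51 in controls and -0.81 in FMRKO mice (adjusted p = 3.2e-04 and 5.4e-05), and corticosterone against chow in FMRKO mice became -0.27 (adjusted p = 0.018). With group means removed, Tcf7l2 was also higher where endothelial markers (r = 0.64, permutation p = 0.003, adjusted 0.044; rho = 0.68, permutation p = 0.005, adjusted 0.079; r = 0.75 without 2 libraries) and mural cell markers (r = 0.58, permutation p = 0.003, adjusted 0.044; rho = 0.56, permutation p = 0.010, adjusted 0.107; r = 0.55 without 2 libraries) were higher. On the high-fat diet, where Tcf7l2 fell, 3 of 6 endothelial and 1 of 5 mural cell markers rose in each genotype and 0 fell. Of all 19717 genes tested, 3013 rose in controls and 3002 in FMRKO mice. The counts cover all transcripts of Tcf7l2, so splice forms were not told apart. Ppnr, a gene annotated within Tcf7l2 on the same strand, had at most 715 counts (median 241.5), where Tcf7l2 had 1995 to 5791. Whether any of its reads are in the Tcf7l2 counts was not tested.

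**Figure D4:**
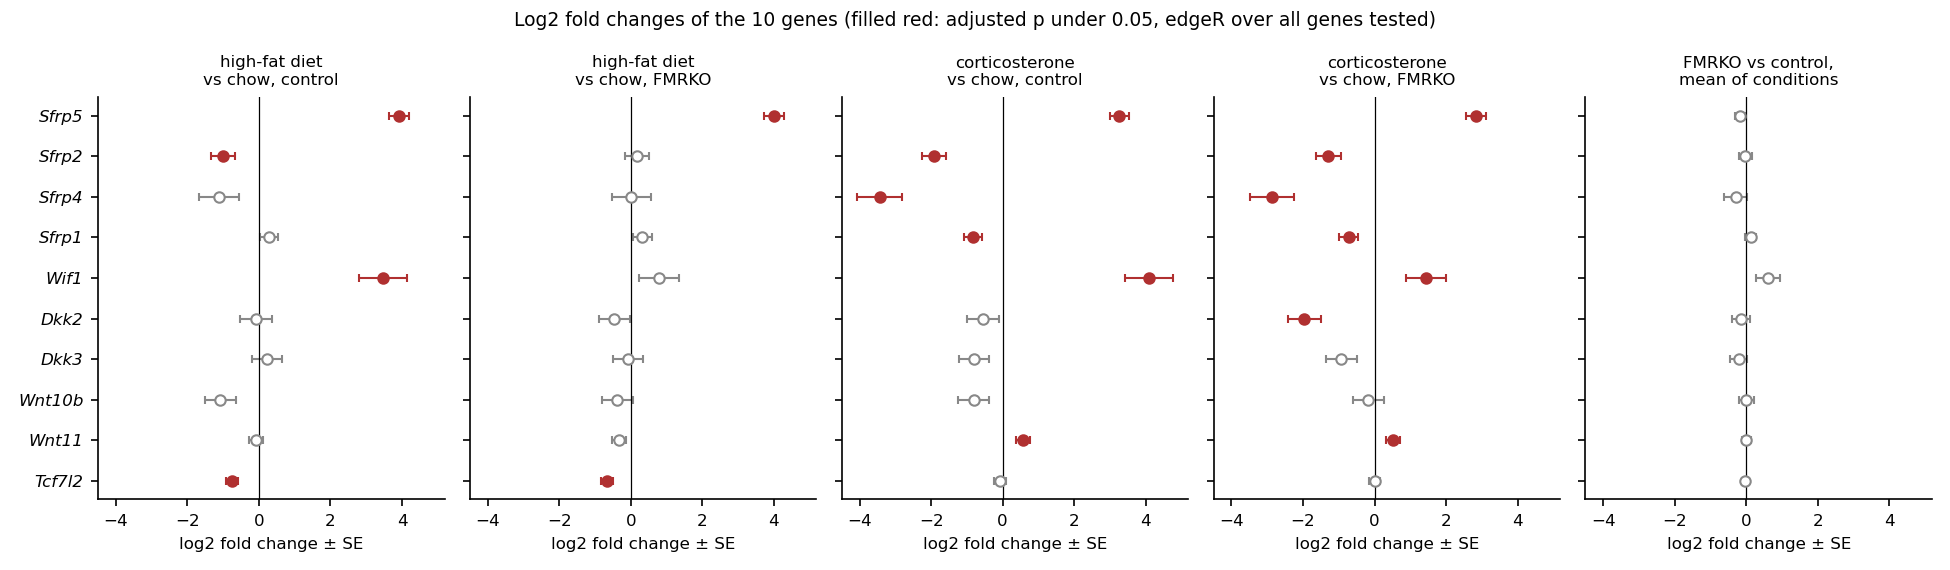
Log2 fold change ± SE (x axes) of the 10 genes (y axis) in 5 comparisons; filled red points have an adjusted p under 0.05. Sfrp5 is raised in all 4 comparisons with chow, Sfrp2 and Sfrp4 are lowered with corticosterone in both genotypes, and no gene is called between genotypes.

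By count, the high-fat diet changed 4 of the 10 genes in controls (2 higher, 2 lower), where 29.2% of all genes tested were called, and 2 in FMRKO mice (1 higher, 1 lower), where 24.4% were. Corticosterone changed 6 in controls (3 higher, 3 lower) against 42.9% of all genes, and 7 in FMRKO mice (3 higher, 4 lower) against 41.1%. Corticosterone against the high-fat diet changed 4 in controls (2 higher, 2 lower) against 24.9%, and 7 in FMRKO mice (2 higher, 5 lower) against 15.8%. The median log2 fold change of the 10 genes was -0.68 and -0.45 for corticosterone against chow in controls and FMRKO mice, where that of all genes was -0.12 and -0.11. For the high-fat diet the medians were -0.09 and -0.03 beside 0.01 and -0.06 for all genes. Because the 10 genes were chosen with earlier results of these data known, these counts and medians are a description. They do not test whether the list differs from all genes. Without the lymph node libraries the counts were 3, 2, 6 and 6 against chow and 5 and 7 against the high-fat diet, and without the muscle libraries 4, 2, 6 and 5 against chow and 4 and 7 against the high-fat diet. The shares of all genes above come from all 24 libraries and are not those of these settings. In corticosterone FMRKO mice against chow the count was 4 without chow FMRKO 3 or without corticosterone FMRKO 4. Over all genes, leaving out 1 library at a time gave 6860 to 8656 calls there.

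Between genotypes, edgeR called 0 of the 10 genes on chow (0.0101% of all genes called), on the high-fat diet (0.0101%, or 2 genes, and 6 with the replicate block), with corticosterone (0.00507%) and over the mean of the 3 conditions (0.0355%). Both tests of whether the genotype effect differed from that on chow called 0 of the 10 genes and 0% of all genes. Over all genes these tests gave 1939 and 1171 at an unadjusted p under 0.05, and DESeq2 called 13 and 4. An unadjusted p under 0.05 was found for 1 of the 10 genes on chow (Wif1), 0 on the high-fat diet, 1 with corticosterone (Dkk2), 0 over the mean, and 2 in each test of a difference (Sfrp2 and Wif1 for the high-fat diet, Dkk2 and Wif1 for corticosterone). Of all 19717 genes tested, 2353 had one on chow, 781 on the high-fat diet, 843 with corticosterone and 1314 over the mean. DESeq2 also called 0 of the 10 in each of these comparisons. For the mean over conditions the 95% intervals of the log2 fold change were -0.47 to 0.13 for Sfrp5, -0.43 to 0.37 for Sfrp2, -0.98 to 0.39 for Sfrp4 and -0.22 to 0.16 for Tcf7l2.

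The rest of the pathway was described from 8 lists with 83 genes, of which 71 were tested. The high-fat diet changed 24 of these in controls (12 higher, 12 lower; 33.8%) and 13 in FMRKO mice (11 higher, 2 lower; 18.3%). Corticosterone changed 31 in controls (12 higher, 19 lower; 43.7%) and 30 in FMRKO mice (15 higher, 15 lower; 42.3%). Of all genes tested, the high-fat diet changed 29.2% in controls and 24.4% in FMRKO mice, and corticosterone 42.9% and 41.1%. These shares also stand beside the counts of single lists below. The median log2 fold changes of the pathway genes were -0.09, 0.02, -0.35 and -0.22. Without the lymph node libraries the counts were 19, 12, 37 and 22, and without the muscle libraries 16, 14, 33 and 31. The shares of all genes above are not from these settings.

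**Figure D5:**
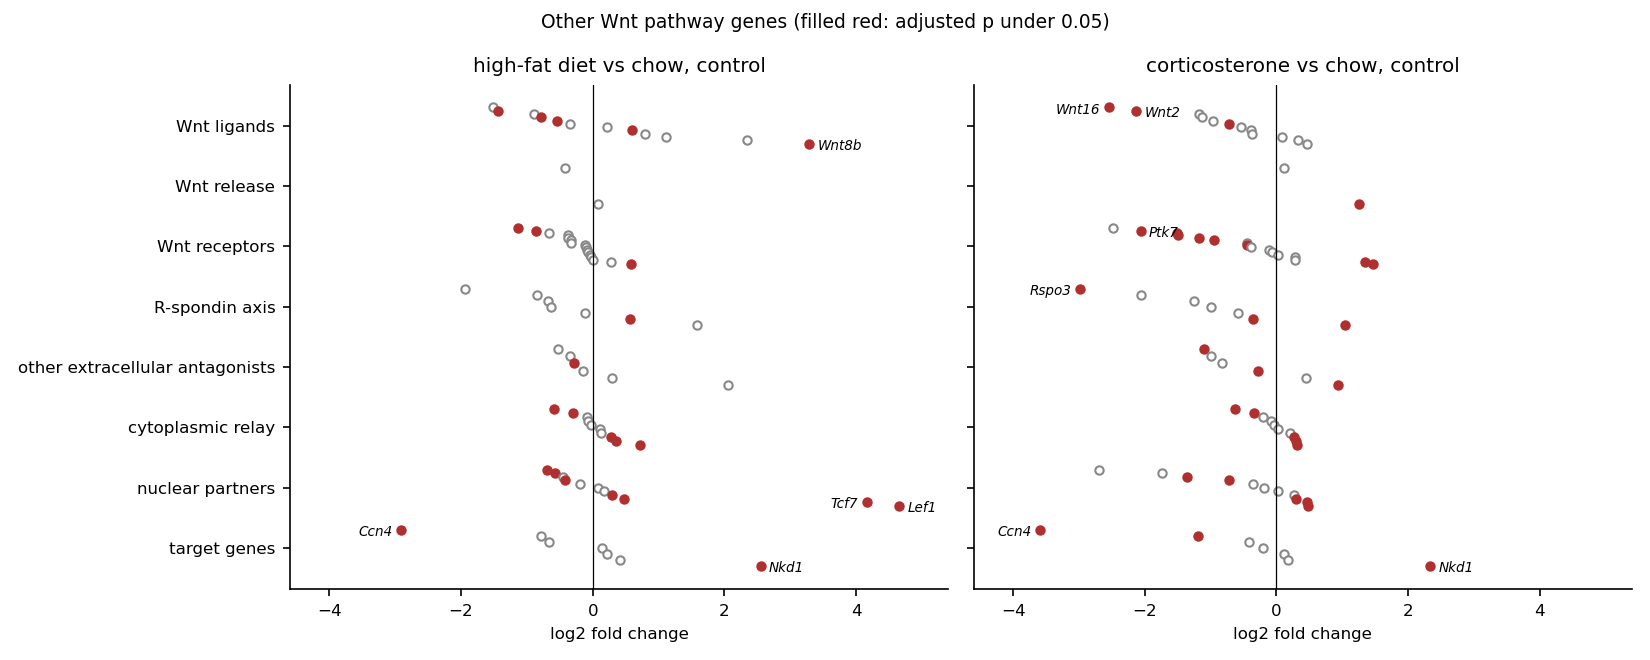
Log2 fold change (x axes) of the other Wnt pathway genes tested, by list (y axis), for the high-fat diet and for corticosterone against chow in controls; filled red points have an adjusted p under 0.05, and called genes beyond 2 in size are named. Nkd1 is raised in both panels, by 2.55 and 2.33.

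Among 12 other Wnt ligands, 2 were higher and 3 lower on the high-fat diet in controls. Wnt8b went from 0.554 ± 0.187 to 5.49 ± 1.52 CPM in controls (3.29 ± 0.40, adjusted p = 4.7e-06, edgeR) and from 0.562 ± 0.285 to 3.03 ± 1.30 CPM in FMRKO mice (2.45 ± 0.39, adjusted p = 1.1e-04). With corticosterone it averaged 0.278 and 0.507 CPM. Wnt2, a ligand expressed by mesenchymal cells, fell with corticosterone in both genotypes (-2.13 ± 0.45 and -1.57 ± 0.45, adjusted p = 8.5e-04 and 0.009), and Wnt16 did in controls (-2.55 ± 0.62, adjusted p = 0.003). Porcn, the enzyme that attaches the lipid Wnt ligands need for release, rose with corticosterone from 15.4 ± 2.36 to 36.6 ± 9.35 CPM in controls and from 12 ± 2.49 to 41.5 ± 9.02 CPM in FMRKO mice (1.25 ± 0.20 and 1.78 ± 0.20, adjusted p = 5.0e-05 and 1.5e-06). On the high-fat diet in controls Wnt2, Wnt4 and Wnt2b were lower (-1.44 ± 0.44, -0.79 ± 0.27 and -0.54 ± 0.20), and Wnt5a, the ligand that Sfrp5 binds, was higher (0.59 ± 0.21, adjusted p = 0.038). Wnt2b was also lower with corticosterone in controls (-0.72 ± 0.20).

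Of 16 receptors and co-receptors, corticosterone raised 2 and lowered 6 in controls and raised 3 and lowered 2 in FMRKO mice. Fzd4 averaged 249 CPM in chow controls and 637 CPM in corticosterone controls (1.35 ± 0.19, adjusted p = 1.2e-05, edgeR). In FMRKO mice Fzd4 was higher too, at 224 CPM (145 to 268) on chow and 598 CPM (584 to 606) with corticosterone. Fzd5 went from 18 ± 1.45 to 49.4 ± 10.0 CPM in controls (1.46 ± 0.15, adjusted p = 2.8e-07, edgeR) and rose in FMRKO mice as well (1.29 ± 0.15). Ptk7 and Ror2, receptors of the branch without beta-catenin, fell in controls (-2.06 ± 0.37 and -1.51 ± 0.23), and Fzd6 fell in both genotypes (-1.50 ± 0.22 and -1.08 ± 0.22). On the high-fat diet Ror2 and Ror1 fell in controls (-1.13 ± 0.23 and -0.86 ± 0.18), while Fzd4 rose in both genotypes (0.58 ± 0.19 and 0.63 ± 0.19) and Fzd8 and Lrp5 rose in FMRKO mice (0.62 ± 0.19 and 0.44 ± 0.14). Against the high-fat diet, corticosterone raised Fzd4 and Fzd5 and lowered Fzd6 in both genotypes, Fzd5 by 1.46 ± 0.15 and 1.16 ± 0.15.

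In the R-spondin axis, in which R-spondins bind Lgr receptors and keep Frizzleds at the cell surface, Lgr4 rose in all 4 comparisons with chow, by 0.56 ± 0.19 to 1.15 ± 0.19. Rspo3 fell with corticosterone in controls, from 0.983 ± 0.634 to 0.115 ± 0.0924 CPM (-2.99 ± 0.68, adjusted p = 0.001, edgeR). In FMRKO mice Rspo2 and Rnf43, a ligase that removes Frizzleds, fell (-3.42 ± 0.99 and -2.59 ± 0.80). Rspo2 was barely detected there, at 0.609 ± 0.550 CPM (0.223 to 1.42) on chow and 0.0478 ± 0.0580 CPM (0 to 0.118) with corticosterone. Rnf43 ranged from 0.506 to 5.94 CPM in chow FMRKO mice, and 4 of 10 lymph node markers fell in the same comparison; their part in it was not tested. The related ligase Znrf3 fell in both genotypes (-0.36 ± 0.08 and -0.34 ± 0.08). Of 6 other extracellular antagonists, Apcdd1, a membrane-bound Wnt inhibitor, rose with corticosterone in both genotypes (0.94 ± 0.24 and 1.02 ± 0.24), and Kremen2, a Dickkopf receptor, fell in controls (-1.10 ± 0.32). Kremen1 fell in controls under both treatments (-0.29 ± 0.09 under high-fat diet and -0.28 ± 0.09 under corticosterone), and Frzb, a further Sfrp relative, fell with corticosterone in FMRKO mice (-3.13 ± 0.87, adjusted p = 0.007).

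Of 10 cytoplasmic relay genes, 5 were called on the high-fat diet in controls (3 higher, 2 lower), led by Ctnnbip1, an inhibitor that keeps beta-catenin off TCF factors, at 0.72 ± 0.18, and it rose in FMRKO mice too (0.92 ± 0.18; adjusted p = 0.004 and 7.1e-04, edgeR). Ctnnb1, which encodes beta-catenin, rose on the high-fat diet in both genotypes (0.28 ± 0.09 and 0.47 ± 0.09), and Gsk3b, a kinase that marks it for decay, rose in all 4 comparisons with chow by 0.29 ± 0.10 to 0.37 ± 0.10. Of 7 target genes, Nkd1, a feedback inhibitor induced by Wnt signals, rose in all 4 comparisons with chow: by 2.55 ± 0.22 and 2.49 ± 0.22 under high-fat diet and by 2.33 ± 0.21 and 2.21 ± 0.21 with corticosterone, from 6.91 ± 1.27 CPM in chow controls to 40.5 ± 7.24 and 34.8 ± 9.12 CPM. Nkd2 fell with corticosterone in both genotypes (-1.19 ± 0.31 and -1.29 ± 0.31). Ccn4 fell in controls under both treatments (-2.91 ± 0.90 and -3.59 ± 0.94, adjusted p = 0.020 and 0.004), from 0.440 to 13.9 CPM in chow controls (3.92 ± 6.68). Of 11 nuclear partners, Lef1 and Tcf7 rose on the high-fat diet in controls (4.65 ± 1.63 and 4.16 ± 1.41, adjusted p = 0.037 and 0.032) and fell with corticosterone in FMRKO mice (-4.25 ± 1.57 and -3.48 ± 1.35, adjusted p = 0.036 and 0.044). Both are T cell genes, and the lymph node list moved with them: 7 of its 10 markers were higher in the first comparison and 4 of 10 lower in the second. Their part in the result was not tested. Pygo1, a co-activator of beta-catenin, fell in controls under both treatments (-0.69 ± 0.23 and -1.36 ± 0.23) and with corticosterone in FMRKO mice (-1.66 ± 0.24). Tle3, a co-repressor, rose in all 4 comparisons with chow by 0.47 ± 0.11 to 0.57 ± 0.11. Lef1 ranged from 0.779 to 79.1 CPM among chow FMRKO libraries.

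The genes most like each member over the 24 libraries, by Pearson's r of log2 CPM with group means removed, are given as a description. They were Pdlim5 (0.81) and Crtac1 (0.77) for Sfrp5, Cd248 (0.89) and Mmp2 (0.88) for Sfrp2, Mmp2 (0.94) and Plat (0.93) for Sfrp4, and C1ra (0.82) and Selenok-ps1 (0.81) for Sfrp1. For Dkk2 they were Apod (0.89) and Fez1 (0.85), for Dkk3 B3gnt7 and Gm26765 (both 0.79), for Wnt10b Duox1 (0.89) and Zfp521 (0.85), for Wnt11 Bud13 (0.82) and Gm16549 (0.77), and for Tcf7l2 Bmpr1a (0.92) and Zfp449 (0.91). Wif1 averages under 1 CPM and was left out. Among the members, Sfrp2 and Sfrp4 were the most alike pair (0.87), and Sfrp5 had an r between -0.27 and 0.38 with the other 9.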

How the data were processed

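The deposited values are whole-number counts for each gene. The submitters' processing notes name STAR 2.5.1a, Subread, featureCounts 1.4.6p-5 and the build GRCm38. RNA was ribosome-depleted with KAPA RiboErase, per the labels' protocols. The annotation release, strand setting and treatment of multi-mapped reads are not stated there or in the labels. The deposited CPM and RPKM columns of the authors were recomputed from the counts as a check and not used further. Symbols came from GENCODE M21 (97.5% of 41388 genes).

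Genes were kept by filterByExpr within groups at a minimum count of 10 (19717 genes). Counts were scaled by TMM and fitted with edgeR 4.0.16 (R 4.3.3), by the quasi-likelihood test over all 24 libraries with 1 mean per group and 18 residual degrees of freedom. Two-sided p-values took the Benjamini-Hochberg adjustment across every tested gene, with a threshold of 0.05. CPM in the text is TMM-normalised, and errors are SD for levels and SE for log2 fold changes. The biological coefficient of variation was 33.7%, so the spread between libraries sets the precision. Same-numbered high-fat libraries of the genotypes deviated together (r of 0.20 to 0.72), other pairs not throughout, and the numbers' origin is not stated. In 36 pairs within groups the smallest chi-square per degree of freedom was 11.5, so no library was counted as a copy. The procedure was tested on simulated data.

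The members, pathway lists and marker lists were chosen with earlier results of these data known. Named are all members, Nr3c2, up to 4 called genes per pathway list with the largest change, genes of lists with 3 or fewer calls, marker genes beside a result they move with, and the 2 genes most like each member averaging at least 1 CPM. Marker scores are mean log2 CPM (prior count 2). Alternatives were DESeq2 1.42.0, other scalings, no filter, only the groups compared, a replicate block, marker covariates, leaving out lymph node (score above 3) or muscle (above 4) libraries, and leaving out each library. Leaving out both sets together was added after seeing the data.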

Additional observations from a re-analysis of the deposited data

Results flagged for a closer look

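Each of the 10 genes was examined in the 6 groups for a library far from the other 3 of its group, by the gap to the nearest value over the range set against Dixon's critical value at the 95% level. Of 60 sets of 4 libraries, 2 exceeded it, and chance gives about 1 in 20, or 3. Wnt11 was at 9.72 CPM in high-fat control 4, against 6.87 to 7.33 CPM in the other high-fat controls. This library had a lymph node score of 6.12. Dkk2 was at 7.29 CPM in chow FMRKO 5, against 2.82 to 3.50 CPM in the other chow FMRKO libraries. This library had the highest skeletal muscle score, 9.60. The part of the admixed tissue in either value was not tested.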

How the results depend on the processing

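Of 4068 recomputed member values, 3952 kept their side of the threshold (229 of them, called in neither setting, changed sign), 81 lost the call, 35 gained one and 0 reversed. With only the groups compared, the high-fat diet in controls changed 2 of the 10 genes (Sfrp5, Tcf7l2) instead of 4, since Sfrp2 lost its call and Wif1 fell below the count filter. Leaving out 1 library gave 4 to 7 members for corticosterone against chow in FMRKO mice, and 6860 to 8656 of all genes. The replicate numbers do not pair the libraries over the whole design: deviations of same-numbered libraries correlated from -0.28 to 0.72 across genotypes (5 of 11 pairs over 0.1) and from -0.37 to 0.59 across conditions (8 of 20). Within the high-fat diet all 4 pairs across genotypes were over 0.1 (0.20, 0.55, 0.55 and 0.72), and libraries 1 and 4 were rich in lymph node markers in both genotypes. With the replicate block that comparison of genotypes called 0 of the 10 genes and 6 of all genes (2 without it). With the block the members called were 3 for the high-fat diet and 5 for corticosterone in controls, and 2 and 5 in FMRKO mice: Sfrp2 in high-fat controls was -0.73 (adjusted p = 0.150), Sfrp1 with corticosterone -0.70 (0.079) in controls and -0.46 (0.212) in FMRKO mice, and Wif1 in the last 1.10 (0.157). Over all genes, the lowest and highest counts among settings other than leaving out 1 library were 3428 and 6707 for the high-fat diet in controls (5758 as reported), 1734 and 5301 in FMRKO mice (4813), 2892 and 8686 for corticosterone in FMRKO mice (8102) and 1173 and 5727 for corticosterone against the high-fat diet in controls (4904), with the last 3 lowest counts reached without the lymph node and muscle libraries, which leaves 1 library in an arm of each of these comparisons (chow FMRKO 2 or high-fat control 2), assumed to vary like the other groups. In that setting the members called were 3, 2, 6 and 5 against chow (high-fat diet in controls and FMRKO mice, then corticosterone) and 4 and 7 against the high-fat diet, and the pathway genes 14, 7, 38 and 9 against chow. Only corticosterone against chow in controls and against the high-fat diet in FMRKO mice then keep 2 or more libraries in both arms. Between genotypes they were 1 and 89 under chow (2 as reported), 1 and 12 under high-fat diet (2), 1 and 6 under corticosterone (1) and 1 and 35 for the mean (7), and for the differences between genotype effects 0 and 13 and 0 and 4 (0 as reported for both), each with its highest count in DESeq2; without chow control 1 the first was 19. Of the 71 other pathway genes, the high-fat diet in controls changed 24, and 11 with only the groups compared, 11 with the replicate block and 15 without chow control 4; in FMRKO mice it changed 13, and 7 with only the groups compared and 8 without high-fat FMRKO 2 or 3. Corticosterone against the high-fat diet in controls changed 22 of them, and 13 with the replicate block and 9 without the lymph node and muscle libraries (1 high-fat control). DESeq2 called 2 pathway genes between genotypes on chow. Wif1, at 0 to 46 counts per library, is the member whose level depth limits.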
